A study of Mus musculus with 11 samples.

Results

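The genes of cytosolic ribosomal proteins were compared between APC-mutant and wildtype cells sorted from the mouse pituitary. They were taken from the deposited count table by symbol, as names made of Rpl or Rps and a number, together with Rpsa, Rplp0, Rplp1 and Rplp2 and without Rps6k kinases and names ending in -ps. This gave 89 of 56941 genes. Of these, 77 encode the core proteins of the ribosome, with 31 in the small and 46 in the large subunit. The large-subunit genes include 3 for the stalk, the lateral arm that recruits elongation factors. A further 6 are paralogs, which encode close relatives of a core protein, and 6 are copies that the GENCODE M21 annotation lists as processed pseudogenes although their symbols carry no -ps. The symbol rule does not take in Fau, which encodes S30 as a fusion with a ubiquitin-like sequence and is described with the other translation genes.

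The study comprised 5 libraries of FAC-sorted pituitary cells of the genotype APC-mutant, with replicate numbers 1, 2, 4, 5 and 6, and 6 libraries of the genotype wildtype, with numbers 1 to 6. APC is a scaffold of the complex that marks beta-catenin for breakdown. Its loss activates WNT target genes, and the series compares mutant with wildtype cells to find the genes that lie downstream. The mutant titles carry the names APC and Lef1 and the wildtype titles carry ROSAJC (replicates 1 to 4) or ROSAE (replicates 5 and 6). The labels used here give no allele, Cre driver, reporter, sorting gate, strain, sex or age. They do not state that each library is a different animal, and the p-values then describe the spread among these 11 libraries, part of which may be technical. Total counts were 18082332 to 27280761 in APC-mutant libraries and 15740857 to 25414443 in wildtype libraries. Apc itself had 37.8 to 45.6 CPM, the TMM-normalised count scaled to library size, in APC-mutant libraries and 39.3 to 47.4 CPM in wildtype libraries, a log2 fold change of -0.03 ± 0.10 (SE, adjusted p = 0.819, edgeR). The labels do not say which part of the gene is altered, so its count does not check the genotype.

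Each ribosome holds a copy of nearly every core protein, and the genes for these proteins are therefore among the most highly transcribed in growing cells. Their transcripts begin with a C followed by a run of pyrimidines, the 5′ terminal oligopyrimidine (TOP) motif, through which the mTOR kinase pathway and the RNA-binding protein LARP1 control translation. MYC family factors are known activators of ribosome production, and free RPL5 and RPL11 can bind MDM2 and so stabilise p53.

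Ribosomal protein transcripts took a larger part of the APC-mutant libraries than of the wildtype libraries. The 89 genes held 3.62, 3.12, 3.27, 3.33 and 3.44% of all counts in APC-mutant replicates 1, 2, 4, 5 and 6, and 2.57, 2.62, 2.06, 1.76, 2.93 and 2.20% in wildtype replicates 1 to 6. The lowest APC-mutant library lay above the highest wildtype library. The mean share was 3.36 ± 0.188% in APC-mutant libraries (SD, n = 5) and 2.36 ± 0.427% in wildtype libraries (SD, n = 6), a difference of 0.998 percentage points. No test was applied to this sum. In bulk samples, fewer cells that use a gene and less RNA of it per cell cannot be told apart.

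The composition of the libraries moved with the genotype as well. The 16 endocrine cell markers, among them the hormone genes Gh and Prl, held 0.0265 to 0.187% of counts in APC-mutant libraries and 6.50 to 10.1% in wildtype libraries, and all 16 were lower in APC-mutant cells. All 12 endothelial markers (0.493 to 0.717% against 0.00202 to 0.0116%), all 10 mesenchymal and pericyte markers (0.0741 to 0.330% against 0.0129 to 0.0286%), all 10 macrophage markers (0.0268 to 0.180% against 0.00226 to 0.00689%) and all 7 erythroid markers (0.208 to 0.390% against 0.000130 to 0.00371%) were higher in APC-mutant cells, with the APC-mutant range given first in each pair. The only marker of these lists with no count in any library of a genotype was the erythroid gene Slc4a1, in wildtype. The series describes the wildtype cells as stem cells, and of 16 pituitary stem cell markers 6 were higher and 5 lower in APC-mutant cells, with summed shares of 0.0998 to 0.139% in APC-mutant and 0.195 to 0.279% in wildtype libraries. Of all 20622 tested genes 30.7% were higher and 28.5% lower by edgeR, so the stem cell calls lay near those shares. Of 8 posterior lobe and glial markers Vcan was higher and the others were not called. Of 12 genes that respond to tissue dissociation 6 were higher and 0 lower by edgeR, against the same 30.7% and 28.5% of all tested genes. Among the 2337 genes at least as abundant as the least abundant core gene 37.2% were higher. All 12 log2 fold changes were above 0, and the genes held 0.491 to 1.15% of counts in APC-mutant libraries and 0.178 to 0.795% in wildtype libraries. The part of these differences in the ribosomal protein result was not tested. When endocrine markers and mitochondrially encoded genes were left out of the total, the ribosomal protein share was 3.67, 3.14, 3.31, 3.36 and 3.48% in the APC-mutant libraries and 2.85, 2.84, 2.29, 1.95, 3.21 and 2.47% in the wildtype libraries. On this total wildtype replicate 5 lay above APC-mutant replicate 2.

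**Figure D1:**
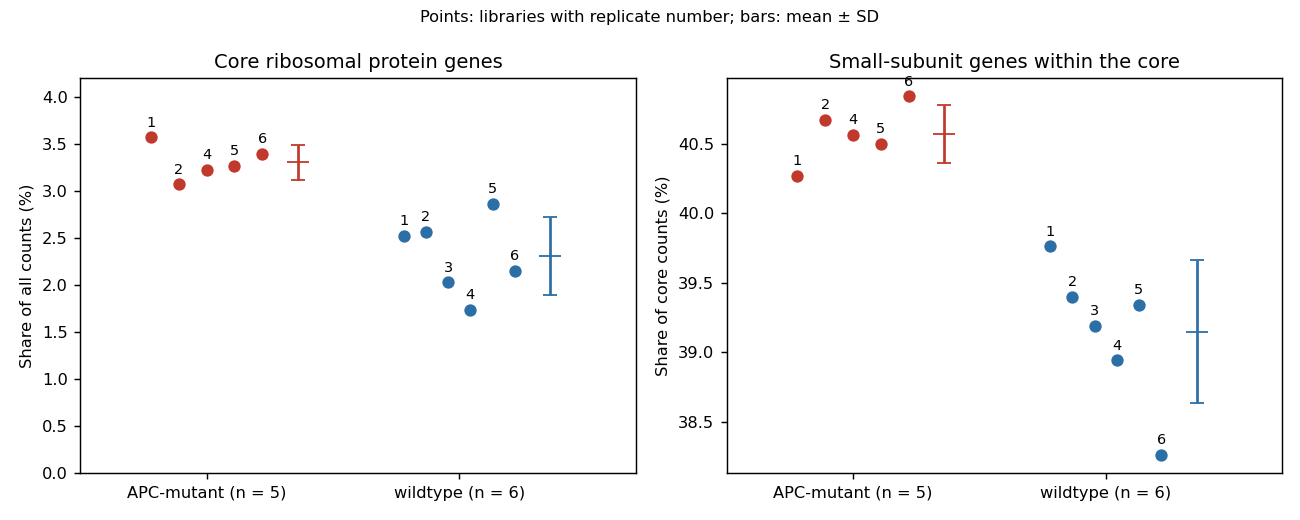
Share of all counts held by the 77 core ribosomal protein genes (left panel, %) and share of those core counts held by small-subunit genes (right panel, %, axis not starting at 0), with a point for each of the 5 APC-mutant and 6 wildtype libraries, its replicate number, and the mean ± SD as bars. All APC-mutant libraries lie above all wildtype libraries in both panels, and wildtype replicates 4 and 5 mark the ends of the wildtype range in the left panel.

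Gene by gene, 85 of the 89 passed the filter on low counts, and 72 were higher and 2, the copies Rps3a2 and Rps3a3, lower in APC-mutant cells by edgeR's quasi-likelihood test at an adjusted p under 0.05. This genotype contrast is broad, since 59.2% of all 20622 tested genes were called, 30.7% higher and 28.5% lower. Among the 2337 genes at least as abundant as the least abundant core gene, 37.2% were higher and 24.5% lower. Of the 77 core genes, 70 (90.9%) were higher and 0 lower. No core gene was called lower by DESeq2 or limma-voom either, and all 77 log2 fold changes were above 0 except for Rpl38 and Rpl41 under upper-quartile scaling, Rpl38 and Rps21 with the ROSAE wildtype libraries only, and Rpl38 without wildtype replicate 4. Over all tested genes 50.7% were above 0. The median log2 fold change of the core was 0.53, a 1.45-fold difference, against 0.02 over all tested genes. The interquartile range of 0.43 to 0.67 was narrow, and the lowest value was 0.12 in Rpl38, so most core genes differed by a similar factor. The median absolute log2 fold change was 0.67 over all tested genes and 0.42 over the genes at least as abundant as the least abundant core gene.

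The size of the call depended on scaling and on the wildtype libraries used. Upper-quartile scaling moved the median of all tested genes to -0.17, left 42 core genes higher, and changed the higher part of all calls to 40.8%, against 51.9% with the main scaling. Relative to that median the core stood 0.51 higher, compared with 0.52 in the main fit. With the 2 ROSAE wildtype libraries alone 48 core genes were higher, and with the 4 ROSAJC libraries alone 70, of which 69 were called with all 6.

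In 53 of the 77 core genes every APC-mutant library was above every wildtype library in normalised CPM, a pattern found in 23% of all tested genes. In 15 of the other 24, wildtype replicate 5 alone reached into the APC-mutant range. That library was the highest of the wildtype group for 62 core genes, and wildtype replicate 4 was the lowest for 72. The wildtype libraries thus varied together across the core, with a mean log2 CPM of 7.54 to 8.30, while the APC-mutant libraries spanned 8.45 to 8.67. Without these 2 wildtype libraries 70 core genes were higher, of which 69 were called with all libraries.

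**Figure D2:**
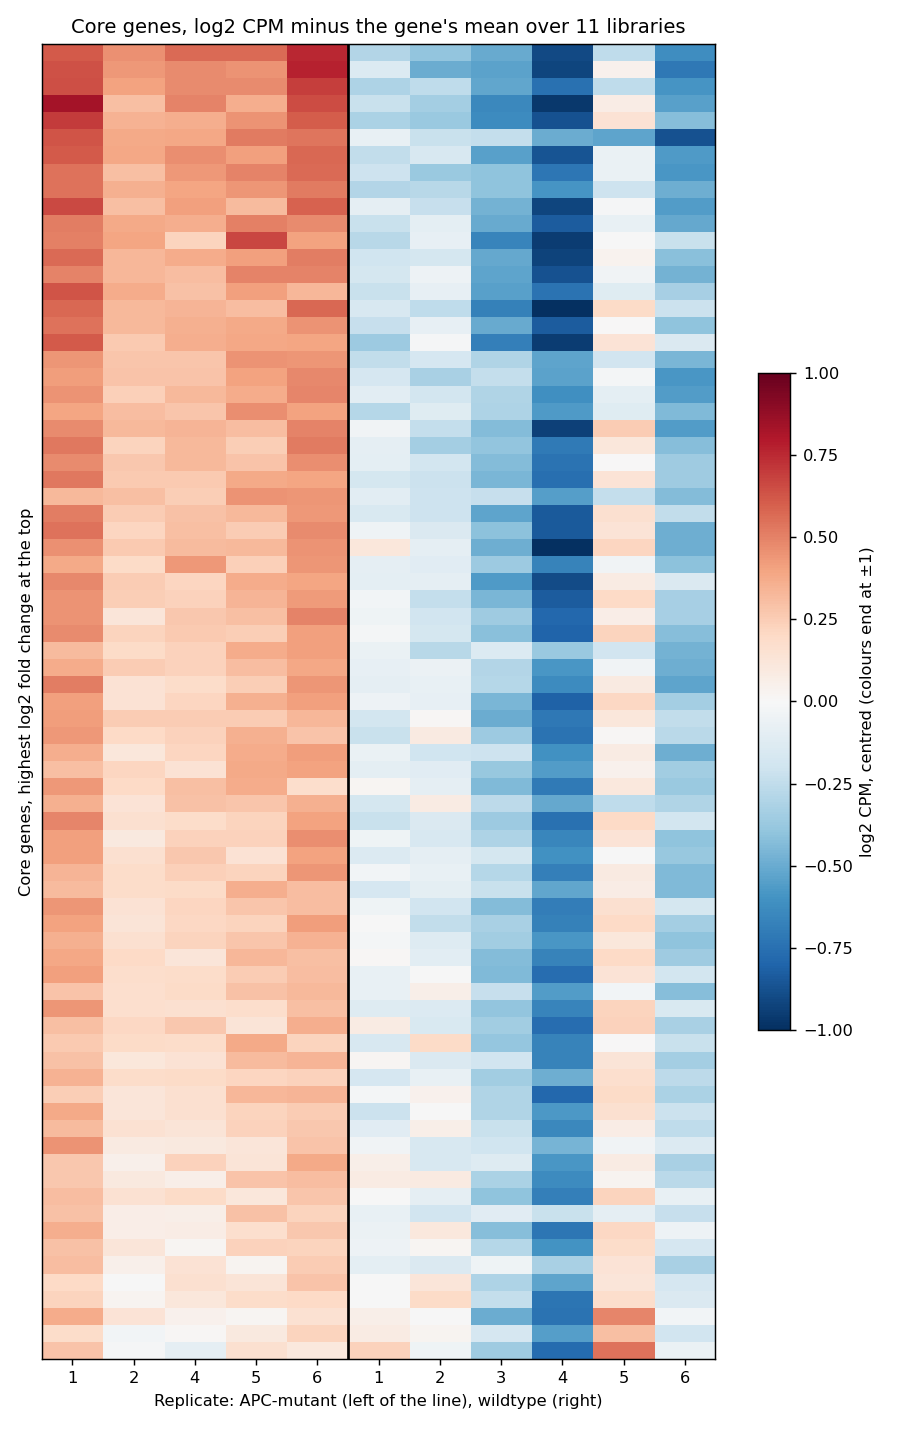
Each row is 1 of the 77 core ribosomal protein genes, ordered by log2 fold change, and each column a library, with the 5 APC-mutant libraries left of the line and the 6 wildtype libraries right of it. Colour gives log2 CPM minus the gene's mean over the 11 libraries. Wildtype replicate 4 is low through almost the whole column and wildtype replicate 5 comes nearest to the APC-mutant columns.

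Among small-subunit genes, 29 of 31 were higher, with a median log2 fold change of 0.65 (1.56-fold). Rps12 (ENSMUSG00000061983.8, GRCm39 chromosome 10, 23661081 to 23663173), known in Drosophila for its part in cell competition, had 193, 167, 172, 169 and 211 CPM in APC-mutant libraries and 65.6, 86.7 and 128 CPM as the lowest, median and highest of the wildtype libraries. Its log2 fold change was 0.98 ± 0.16 (SE, adjusted p = 9.15e-05, edgeR), with 13.7% of its exonic bases shared with Snora33, Gm23130 and a further gene. Rps26, which lines the mRNA exit channel, had 390, 271, 309, 283 and 345 CPM in APC-mutant libraries and 113, 162 and 232 CPM (lowest, median, highest) in wildtype libraries, a log2 fold change of 0.94 ± 0.17 (SE, adjusted p = 0.000210, edgeR). In both genes the groups did not overlap. Rps20 (0.88 ± 0.15), Rps3a1 (0.88 ± 0.13) and Rps19 (0.80 ± 0.13), the last a gene mutated in the human anaemia of Diamond and Blackfan, were also among the 6 largest log2 fold changes of the small subunit, each without overlap between genotypes. The size of the Rps3a1 value carries a limit, because wildtype replicates 2, 5 and 6 held many counts on its copies Rps3a2 and Rps3a3. There Rps3a1 held 1.72, 1.26 and 1.31% of core counts, against 1.91 to 2.06% in the other wildtype libraries and 2.01 to 2.11% in APC-mutant libraries.

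Rps6, the substrate of the S6 kinases, had 570, 510, 507, 574 and 570 CPM in APC-mutant libraries and 291, 348 and 373 CPM (lowest, median, highest) in wildtype libraries. Its log2 fold change was 0.69 ± 0.10 (SE, adjusted p = 2.87e-05, edgeR). Rpsa, whose protein is also known as a laminin receptor, averaged 794 ± 47.8 CPM in APC-mutant and 498 ± 73.6 CPM in wildtype libraries (SD, n = 5 and 6), a log2 fold change of 0.67 ± 0.11. Neither gene showed overlap between the genotypes.

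Among large-subunit genes, 41 of 46 were higher, with a median log2 fold change of 0.51 (1.43-fold). With upper-quartile scaling this count was 22, and with the ROSAE wildtype libraries only it was 25. Rpl7 averaged 760 ± 54.6 CPM in APC-mutant and 423 ± 69.7 CPM in wildtype libraries, a log2 fold change of 0.85 ± 0.12, and Rpl23 averaged 361 ± 40.9 and 206 ± 45.6 CPM in the same order, a log2 fold change of 0.81 ± 0.15. Rpl23a and Rpl35, whose proteins sit at the exit of the peptide tunnel, had log2 fold changes of 0.87 ± 0.14 and 0.78 ± 0.16. Both values carry a limit, because 62.3% of the exonic bases of Rpl23a overlap Tlcd1 and Snord42b, and 66.2% of those of Rpl35 overlap Arpc5l and Wdr38. Rpl39, a small protein of the tunnel wall, averaged 175 ± 10.9 CPM in APC-mutant and 111 ± 31.4 CPM in wildtype (a log2 fold change of 0.67 ± 0.17), a call lost with the ROSAE wildtype libraries only (adjusted p = 0.0533, edgeR). Rpl3, which lies next to the peptidyl transferase centre, averaged 1032 ± 65.4 and 704 ± 73.3 CPM in the same order (0.55 ± 0.10).

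The 3 stalk genes were all called higher but by unequal amounts. Rplp0, the base of the stalk (ENSMUSG00000067274.11, GRCm39 chromosome 5, 115697526 to 115701786), had 1468, 1290, 1321, 1370 and 1444 CPM in APC-mutant libraries and 670, 793 and 871 CPM (lowest, median, highest) in wildtype libraries, a log2 fold change of 0.82 ± 0.10 (SE, adjusted p = 5.86e-06, edgeR). For its partners Rplp1 and Rplp2 the log2 fold changes were 0.63 ± 0.15 (adjusted p = 0.00287, edgeR) and 0.35 ± 0.14 (adjusted p = 0.0408, edgeR). The Rplp2 call was lost in 14 of the alternatives, among them DESeq2 size factors, library totals and upper-quartile scaling, and its genotypes overlapped.

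Rpl5 and Rpl11, which join 5S ribosomal RNA before they enter the ribosome, were both higher. Rpl5 had 355, 299, 321, 356 and 369 CPM in APC-mutant libraries and 182, 240 and 293 CPM (lowest, median, highest) in wildtype libraries, a log2 fold change of 0.53 ± 0.13 (SE, adjusted p = 0.00231, edgeR), with 26.7% of its exonic bases shared with Fam69a and Snord21. Rpl11 had 290, 247, 248, 260 and 270 CPM in APC-mutant libraries and 129, 200 and 239 CPM in wildtype libraries, a log2 fold change of 0.46 ± 0.14 (SE, adjusted p = 0.0115, edgeR). The lowest APC-mutant library was above the highest wildtype library in both, by a small margin. The Rpl11 call was lost with upper-quartile scaling (adjusted p = 0.129, edgeR) and with the ROSAE wildtype libraries only (adjusted p = 0.0756, edgeR).

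**Figure D3:**
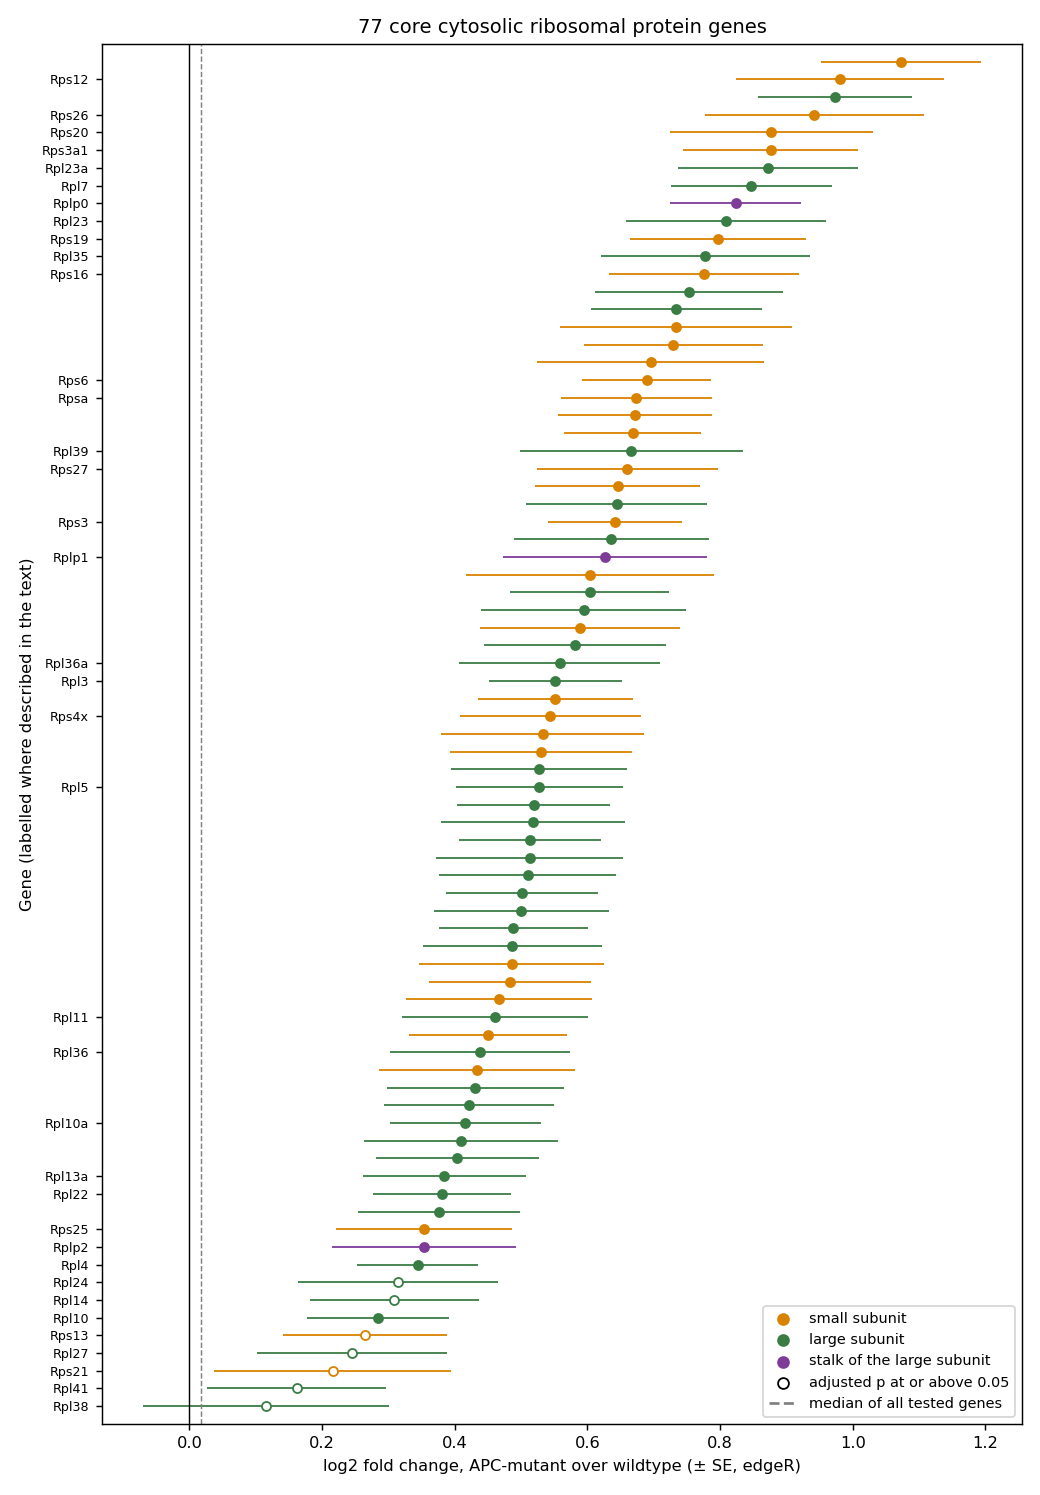
Log2 fold change (APC-mutant over wildtype, ± SE, edgeR) of the 77 core genes, coloured by small subunit, large subunit and stalk, with names beside genes described in the text and open circles for the 7 genes with an adjusted p at or above 0.05. All points lie right of 0, except that Rpl38 and Rpl41 fell below 0 with upper-quartile scaling, Rpl38 and Rps21 with the ROSAE libraries only, and Rpl38 without wildtype replicate 4. The dashed line marks the median of all tested genes, 0.02.

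The 7 core genes that were not called were Rpl14, Rpl24, Rpl27, Rpl38, Rpl41, Rps13 and Rps21, with log2 fold changes of 0.12 to 0.31. Of these, Rps13 was called higher without wildtype replicate 2 (0.31, adjusted p = 0.0432, edgeR). Rpl38, known in the mouse for its effect on the translation of Hox transcripts, had 147, 119, 113, 135 and 130 CPM in APC-mutant libraries and 70.5, 116 and 175 CPM (lowest, median, highest) in wildtype libraries. The APC-mutant values lay inside the wildtype range, with a log2 fold change of 0.12 ± 0.19 (SE, adjusted p = 0.615, edgeR). Rpl41, which encodes the smallest ribosomal protein, had 693, 598, 616, 653 and 712 CPM in APC-mutant libraries and 415, 582 and 751 CPM in wildtype libraries, a log2 fold change of 0.16 ± 0.13 (SE, adjusted p = 0.323, edgeR). Rpl14 was next to the threshold, with a log2 fold change of 0.31 ± 0.13 (SE, adjusted p = 0.0504, edgeR). Rpl10, which is needed for the last steps of large-subunit maturation, was called with a log2 fold change of 0.28 ± 0.11 (adjusted p = 0.0343, edgeR), and that call was lost in 14 alternatives.

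Composition within the core can be read without scaling between libraries, as a share of the summed core counts. Small-subunit genes held 40.3, 40.7, 40.6, 40.5 and 40.8% of core counts in APC-mutant libraries and 39.8, 39.4, 39.2, 38.9, 39.3 and 38.3% in wildtype libraries. The genotypes did not overlap, but the means of 40.6 ± 0.209% and 39.1 ± 0.513% were close, and no test was applied. For 8 genes the share of core counts was higher in every APC-mutant library than in any wildtype library (among them Rps12, Rps16, Rps19, Rpl7, Rpl23a and Rplp0), and for 12 it was lower (among them Rps13, Rps25, Rpl10, Rpl10a, Rpl13a, Rpl14, Rpl24, Rpl27, Rpl38, Rpl41 and Rplp2). The other 57 overlapped. Relative to the summed core counts, 12.1% of all tested genes lay above and 37.4% below in the same way. Rpl41 held 1.92 ± 0.0392% of core counts in APC-mutant and 2.58 ± 0.112% in wildtype libraries (SD, n = 5 and 6).

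These genes have many near-identical copies in the genome, and the counting left out read pairs with several mapping places. A median of 51.3% of the 75-base words in a core gene's transcripts also occurred in a transcript of another gene, with 0 to 98.5% across the core and 41 genes over 50%. The median log2 fold change was 0.52 in the 39 core genes with the most shared words, of which 35 were higher, and 0.60 in the other 38, of which 35 were higher. Among the 9 genes with under 10% shared words 8 were higher, with a median of 0.64. Rps3, with 0% shared, had a log2 fold change of 0.64 ± 0.10. The 300 genes named as ribosomal protein pseudogenes held 0.0204 to 0.0253% of counts in APC-mutant libraries and 0.0103 to 0.0179% in wildtype libraries, and adding them to their parents left 71 core genes higher. This addition does not restore read pairs that map to both a parent and a copy, so it cannot show what their loss changed.

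Core genes lie on 19 chromosomes, and the 4 on the X chromosome (Rps4x, Rpl10, Rpl36a and Rpl39) were all higher. Across the 77 core genes the log2 fold change was weakly related to coding length (Pearson r = 0.171, Spearman rho = 0.107), GC content (r = -0.138, rho = -0.0988) and mean level per length (r = 0.17, rho = 0.19). These are descriptions across genes of the same 11 libraries, and genes are not independent replicates. Levels per kilobase of the table's exon length ran from 29.4 to 688 FPKM over the core, with Rpl36, Rplp0, Rplp1 and Rps3a1 among the top 5. With the length of the main GENCODE M21 transcript instead, none of the top 5 stayed among the top 5, so no order of levels between genes is drawn.

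Promoter sequence around the start site was available from RefSeq (GRCm38.p6) for 57 of the 77 core genes. A C followed by at least 7 pyrimidines on the gene's strand occurred within 30 bases of the start in 31 of them (54.4%), against 19.4% of 27025 genes. The ETS-type motif CCGGAAG, searched on both strands from 250 bases before to 50 after the start, occurred in 24 (42.1%) against 9.93%, and its reverse complement CTTCCGG can begin inside a pyrimidine run. The E-box CACGTG occurred in 6 (10.5%) against 8.09% in the same window. The 31 genes with the run had a median log2 fold change of 0.53 with 29 higher, and the 26 without it a median of 0.53 with 21 higher. The sequences below show the TOP-type run in capitals, from 30 bases before to 30 after the annotated start, for the genes with a run that had the 3 highest and the 3 lowest log2 fold changes. The annotated start falls between the first and the last 30 letters.
Rps12 (chr10:23787180-23787239, minus strand): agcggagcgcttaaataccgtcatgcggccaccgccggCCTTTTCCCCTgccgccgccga
Rps26 (chr10:128626477-128626536, minus strand): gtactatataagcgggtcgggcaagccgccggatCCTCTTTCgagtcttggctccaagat
Rpl35 (chr2:39005102-39005161, minus strand): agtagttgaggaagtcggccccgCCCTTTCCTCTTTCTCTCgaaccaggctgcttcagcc
Rpl4 (chr9:64173357-64173416, plus strand): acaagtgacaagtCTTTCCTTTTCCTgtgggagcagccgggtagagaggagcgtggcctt
Rpl14 (chr9:120571487-120571546, plus strand): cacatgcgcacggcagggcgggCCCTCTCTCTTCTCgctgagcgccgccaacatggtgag
Rpl38 (chr11:114668550-114668609, plus strand): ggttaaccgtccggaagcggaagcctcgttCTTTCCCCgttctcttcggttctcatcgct
The run was 11, 8 and 18 letters long in Rps12, Rps26 and Rpl35, and 13, 14 and 8 letters long in Rpl4, Rpl14 and Rpl38, so a run of 8 letters occurs at both ends of the range of fold changes. A match is a description of these letters and not a mapped start or a measured site.

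Paralogs were read as their share of the FPKM of the pair with their core partner, which does not depend on scaling between libraries. The size of a share, and of a difference in share, depends on the lengths used, while the order of libraries within a pair does not. For Rpl22l1 and Rpl22 the table's exon lengths were 1989 and 2911 bases, but the main transcripts are 552 and 474 bases long. The shares therefore do not show which gene of a pair is more abundant. Of 7 pairs 6 had counts, and p-values are from exact two-sided permutation tests over the 11 libraries, adjusted over these 6 pairs. Rpl22l1, the paralog of the RNA-binding protein gene Rpl22, held 50.5, 52.8, 54.8, 53.7 and 51.7% of its pair in APC-mutant libraries and 60.1, 57.8, 57.3, 57.4, 67.1 and 60.2% in wildtype libraries. The genotypes did not overlap. The share was 52.7 ± 1.67% in APC-mutant and 60.0 ± 3.73% in wildtype libraries, a difference of -7.28 percentage points (exact permutation p = 0.00433, the smallest 462 regroupings can give, adjusted p = 0.026). In level, Rpl22l1 averaged 97.0 ± 5.40 CPM in APC-mutant libraries against 103 ± 26.2 CPM in wildtype, a log2 fold change of -0.08 ± 0.15 (adjusted p = 0.650, edgeR), while Rpl22 averaged 128 ± 14.3 against 98.1 ± 10.2 CPM, a log2 fold change of 0.38 ± 0.10 (adjusted p = 0.00585, edgeR). The Rpl22 call was lost with upper-quartile scaling (0.19, adjusted p = 0.146, edgeR) and with the ROSAE wildtype libraries only (0.31, adjusted p = 0.0768, edgeR). The sign of the Rpl22l1 difference in level turned without wildtype replicate 5, where it was 0.02.

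Rps4l, a copy of the X-linked Rps4x listed as a processed pseudogene in M21, held 26.8 ± 1.45% of its pair in APC-mutant and 30.6 ± 1.60% in wildtype libraries, a difference of -3.80 percentage points (exact permutation p = 0.00866, adjusted p = 0.026). Here the genotypes overlapped, through wildtype replicate 5. With the ROSAE wildtype libraries only, the differences were -10.95 points for Rpl22l1 and -2.45 points for Rps4l, and the smallest p this comparison of 5 with 2 libraries allows does not pass the adjustment (adjusted p = 0.286 for both, exact permutation). Both calls were also lost when APC-mutant replicate 1, 4, 5 or 6 was left out (adjusted p = 0.0571 each time, exact permutation), with differences of -7.80 to -6.74 points for Rpl22l1 and -3.98 to -3.37 points for Rps4l. For Rpl22l1, whose genotypes did not overlap, the unadjusted p was then the smallest that the remaining libraries allow, so it could not have been smaller. Rps4l itself was called higher (log2 fold change 0.28 ± 0.11, adjusted p = 0.0411, edgeR), by less than Rps4x (0.54 ± 0.14), and that call was lost in 19 alternatives.

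Rps27l, the paralog of Rps27 known as a p53 target in human cells, held 31.6 ± 3.96% of its pair in APC-mutant and 36.2 ± 4.73% in wildtype libraries (adjusted p = 0.151, exact permutation), and its level was not called different (log2 fold change 0.34 ± 0.19, adjusted p = 0.140, edgeR), although it was without wildtype replicates 2, 5 and 6 (0.56, adjusted p = 0.0400, edgeR). Rpl7l1, whose level had a log2 fold change of 0.74 ± 0.14 (130 ± 14.3 CPM in APC-mutant and 77.6 ± 16.6 CPM in wildtype libraries), held 11.6 ± 1.11% and 12.4 ± 1.95% of its pair with Rpl7 (adjusted p = 0.455, exact permutation). The muscle paralog Rpl3l had 18 counts in all APC-mutant and 3 in all wildtype libraries, the testis paralog Rpl39l had 36 and 12, and the testis paralog Rpl10l had 0 in both. None of these 3 reached the filter, and neither did the copy Rps12l1 with 22 and 11 counts.

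Copies of Rps3a set 3 wildtype libraries apart. The copies Rps3a2 and Rps3a3, both listed as processed pseudogenes in M21, held 0.207, 0.479, 0.382, 0.480 and 0.295% of the counts of Rps3a1, Rps3a2 and Rps3a3 together in APC-mutant libraries. In wildtype replicates 1 to 6 they held 0.434, 14.3, 0.328, 0.356, 27.9 and 25.3%. Replicates 2, 5 and 6 thus stood far above the other wildtype and all APC-mutant libraries, and they carry both the ROSAJC and the ROSAE name. In the same 3 libraries Rps3a1 held 1.72, 1.26 and 1.31% of core counts, against 1.91 to 2.06% in the other wildtype and 2.01 to 2.11% in the APC-mutant libraries. The summed level of the 3 genes was 649 to 770 CPM in APC-mutant and 354 to 496 CPM in wildtype libraries, with no overlap. The fitted log2 fold changes of -5.97 ± 1.51 for Rps3a3 (adjusted p = 0.00350, edgeR) and -2.52 ± 0.80 for Rps3a2 (adjusted p = 0.0145, edgeR) rest on these 3 libraries. Without them the log2 fold changes were 1.32 for Rps3a3 (adjusted p = 0.0447, edgeR) and 0.50 for Rps3a2 (adjusted p = 0.304, edgeR), so both changed sign, and 74 core genes were higher. Both calls were also lost with limma-voom, and that of Rps3a2 with the ROSAJC wildtype libraries only. Without APC-mutant replicate 5 and wildtype replicates 2 and 5 neither was called lower, Rps3a2 because it missed the threshold (adjusted p = 0.102, edgeR) and Rps3a3 because it no longer passed the filter on low counts, which it also did not with the stricter filter. Of the remaining copies, Rpl6l had 1.12 ± 0.110 CPM in APC-mutant and 0.743 ± 0.148 CPM in wildtype libraries (adjusted p = 0.0913, edgeR) and Rpl32l 0.505 ± 0.130 and 0.415 ± 0.262 CPM in the same order (adjusted p = 0.710, edgeR).

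**Figure D4:**
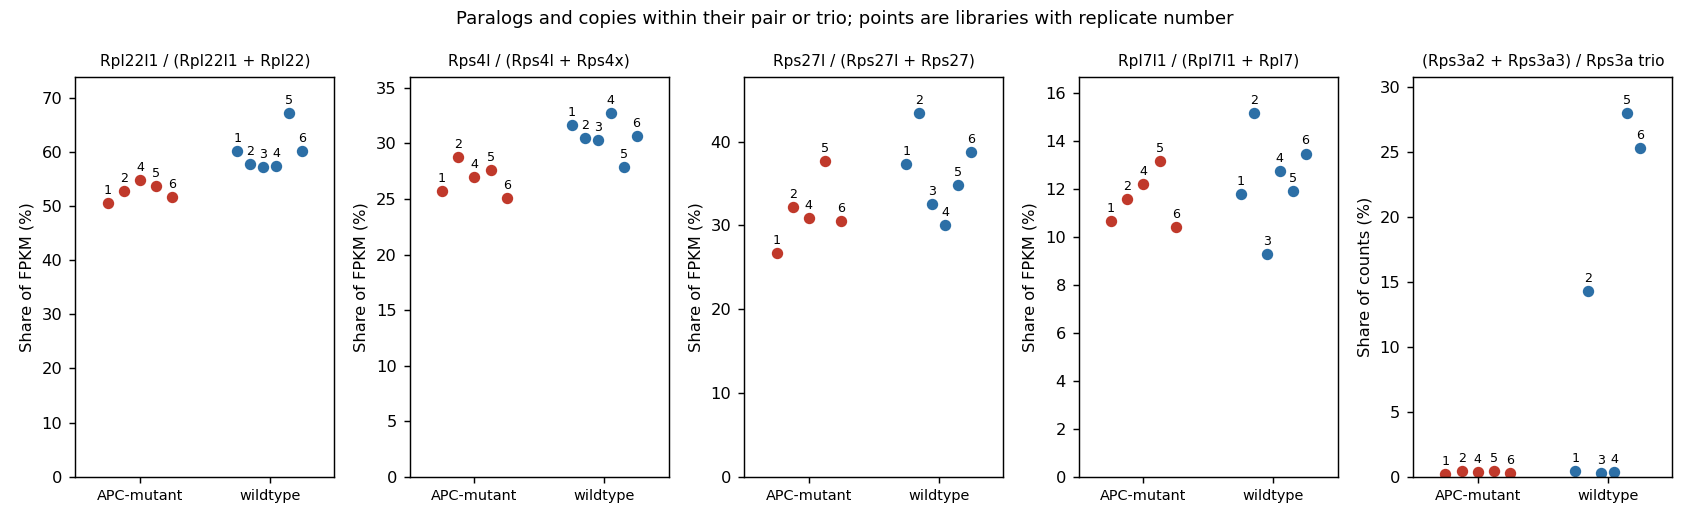
Share (%) of a paralog or copy in its pair or trio, with a point and replicate number for each of the 5 APC-mutant and 6 wildtype libraries. The first 4 panels are shares of FPKM and the last is a share of counts. APC-mutant libraries lie below all wildtype libraries for Rpl22l1, and wildtype replicates 2, 5 and 6 stand apart for the copies of Rps3a.

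Other transcripts known to carry a TOP motif were mostly higher as well. Of 20 such genes 12 (60%) were higher, against 30.7% of all tested genes, and 0 lower, with a median log2 fold change of 0.33. All 20 values were above 0, so 0 were lower at an unadjusted p under 0.05, and DESeq2 and limma-voom called 0 lower. Nap1l1, a histone chaperone gene, had 431, 334, 417, 448 and 427 CPM in APC-mutant libraries and 172 to 191 CPM in wildtype, with a log2 fold change of 1.17 ± 0.09 (adjusted p = 1.09e-07, edgeR). Eef1a1, the elongation factor that delivers aminoacyl-tRNA, had a log2 fold change of 0.57 ± 0.10, Rack1, a scaffold on the small subunit, 0.49 ± 0.10, and Tpt1 0.46 ± 0.11. Fau, with 0.22 ± 0.12, was not called (adjusted p = 0.113, edgeR), although it was without wildtype replicates 2, 5 and 6 (0.31, adjusted p = 0.0457, edgeR). Eef2, the translocase, was not called either (0.23 ± 0.14, adjusted p = 0.168, edgeR). Under upper-quartile scaling 7 of the 20 (35%) were higher, against 25% of all tested genes.

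Other lists of the translation machinery, which share genes with the TOP list, moved less uniformly. The shared genes were Eif3e, Eif3f, Eif3h, Eif3l and Eif4b (initiation), Eef1a1, Eef1b2, Eef1d, Eef1g and Eef2 (elongation) and Npm1 (biogenesis). Of 34 initiation factor genes 12 (35.3%) were higher and 2 lower, with a median log2 fold change of 0.13, so the higher share lay near the 30.7% of all tested genes and the 37.2% of those at least as abundant as the least abundant core gene. Eif1ax (0.81 ± 0.13), Eif3m (0.62 ± 0.13), Eif3e (0.58 ± 0.11) and Eif3j1 (0.45 ± 0.09, 20.2% of its exonic bases shared) had the smallest p-values. Of 11 elongation and termination factor genes 6 (54.5%) were higher and 2 (18.2%) lower. The shared genes Eef1a1, Eef1b2, Eef1d and Eef1g were among the higher ones, and Eef2 was not called. The 2 lower ones were Eef1a2, the paralog of Eef1a1 known from neurons and muscle (0.069 ± 0.106 CPM in APC-mutant and 3.35 ± 1.23 CPM in wildtype libraries), and Eif5a2 (log2 fold change -1.16 ± 0.24). Of 36 ribosome biogenesis genes 9 (25%) were higher, below those shares, and 1, Rrp12, lower, with a median of 0.18. Nhp2, a protein of the pseudouridylation complex, had 79.6 ± 10.6 CPM in APC-mutant and 27.2 ± 10.1 CPM in wildtype libraries (1.55 ± 0.22), the nucleolar helicase gene Ddx21 had a log2 fold change of 0.86 ± 0.14, and Bop1, of the large-subunit assembly complex, 0.74 ± 0.11. The biogenesis genes Npm1 and Fbl had log2 fold changes of 0.18 each and were not called.

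Noncoding hosts of small nucleolar RNAs, which also begin with TOP-type sequence, were split. Of 9 such genes 4 (44.4%) were higher and 1 (11.1%) lower, against 30.7% and 28.5% of all tested genes. Gas5 had 286 ± 21.6 CPM in APC-mutant and 199.9 ± 33.8 CPM in wildtype (a log2 fold change of 0.52 ± 0.12, 18.5% of its exonic bases shared), and Snhg3 was lower (-0.64 ± 0.15, 86.3% shared). Of 79 mitochondrial ribosomal protein genes 6 were higher and 11 lower, with a median log2 fold change of -0.13. The lower count was 36 with upper-quartile scaling, 19 without wildtype replicates 4 and 5, and 18 without wildtype replicate 4 alone. The higher count was 10 without wildtype replicate 2 and 15 without wildtype replicates 2, 5 and 6. Mrps6 (-1.20 ± 0.11, 19.9% shared) and Mrpl1 (-0.74 ± 0.14) were among the lower ones, and Mrpl48 (0.50 ± 0.10) among the higher ones. With the main scaling 7.59% of the mitochondrial list was higher and 13.9% lower, against 30.7% and 28.5% of all tested genes. With upper-quartile scaling 45.6% of the list was lower, against 36.3% of all tested genes.

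**Figure D5:**
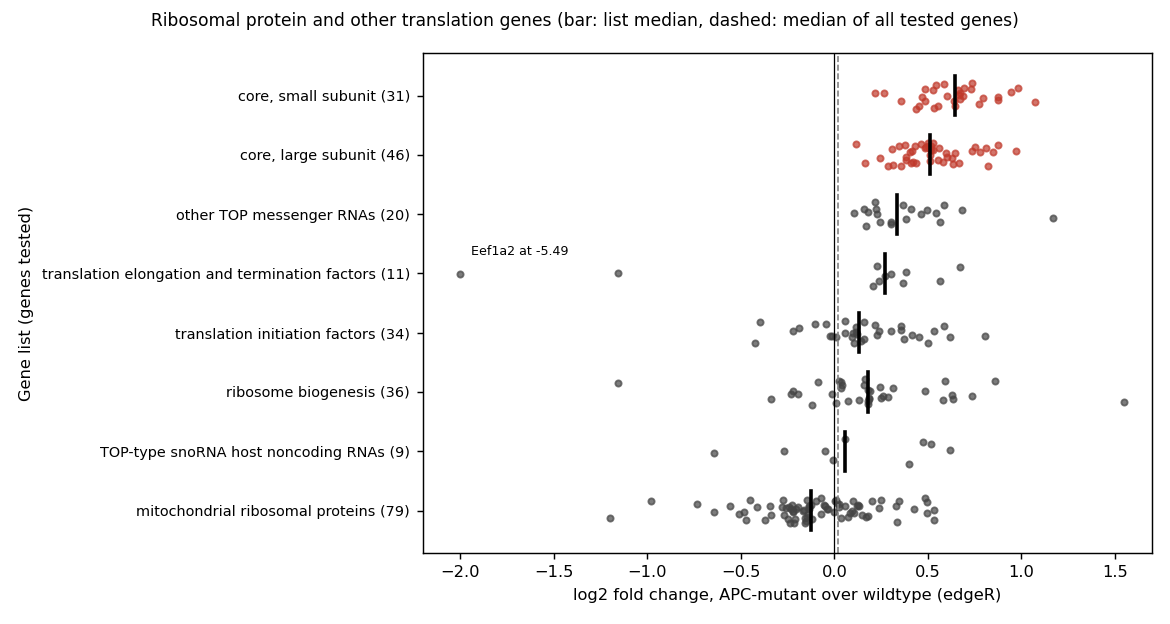
Log2 fold change (APC-mutant over wildtype, edgeR) of each tested gene in the small-subunit and large-subunit core and in 6 other lists, with the number of genes in brackets, the list median as a bar and the median of all tested genes (0.02) as a dashed line. Genes shared between lists are drawn in each. Eef1a2 lies outside the axis at -5.49 and is drawn at its left end. The core medians are 0.65 and 0.51, that of the other TOP messenger RNAs 0.33 and that of the mitochondrial ribosomal proteins -0.13.

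Genes that are known to act on ribosome production or on TOP translation showed no common direction. Of 18 regulators of ribosomal protein translation 4 (22.2%) were higher and 4 (22.2%) lower, against 30.7% and 28.5% of all tested genes. Eif4ebp1, an inhibitor of cap-dependent translation that mTOR inactivates, had 54.5 ± 7.95 CPM in APC-mutant and 27.4 ± 5.46 CPM in wildtype (a log2 fold change of 0.99 ± 0.15). The other higher genes were Akt1 (0.37 ± 0.12), Eif4ebp2 (0.37 ± 0.11) and Rps6kb1 (0.47 ± 0.11). Of the mTOR inhibitors, Sesn1 (-1.38 ± 0.19), Sesn2 (-0.77 ± 0.16) and Tsc1 (-0.71 ± 0.13) were lower. Tsc2 (-0.167 ± 0.165), Deptor (-0.52 ± 0.34) and Ddit4 (0.31 ± 0.30), inhibitors as well, were not called. Rptor, which is not an inhibitor of mTOR, was lower as well (-0.635 ± 0.164). Mtor itself (0.14 ± 0.11, adjusted p = 0.305, edgeR) and Larp1 (-0.03 ± 0.09, adjusted p = 0.817, edgeR) were not called, and the sign of both depended on the setting. With upper-quartile scaling Larp1 was called lower (-0.22, adjusted p = 0.0408, edgeR).

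Of 11 genes of MYC and its partners 5 (45.5%) were higher and 3 (27.3%) lower, against 30.7% and 28.5% of all tested genes. Mycn averaged 36.03 ± 6.24 CPM in APC-mutant and 16.2 ± 5.69 CPM in wildtype (a log2 fold change of 1.15 ± 0.22), and Myc, with 78.0, 86.0, 67.8, 45.7 and 57.5 CPM in APC-mutant libraries and 26.2 to 56.1 CPM in wildtype libraries, had a log2 fold change of 0.56 ± 0.20 (adjusted p = 0.0275, edgeR). The genotypes overlapped for Myc, and its call was lost in 8 alternatives. The MYC antagonists did not share a direction. Mxd1 (1.52 ± 0.24), Mxd4 (0.84 ± 0.15) and Mxd3 (0.43 ± 0.13) were higher, Mnt was lower, and Mxi1 was not called (0.04 ± 0.14, adjusted p = 0.815, edgeR). The 3 lower genes were Mga (-0.65 ± 0.15), Mnt (-0.75 ± 0.25) and Mycl (-0.59 ± 0.22), the last a MYC family gene like Myc and Mycn. Of 7 genes of ribosomal stress and p53 2 (28.6%) were higher and 2 (28.6%) lower, near the shares of all tested genes. Cdkn1a, the p21 cell cycle inhibitor gene, had 1184 ± 219 CPM in APC-mutant and 70.0 ± 27.3 CPM in wildtype libraries (4.08 ± 0.26) and Trp53 had a log2 fold change of 0.79 ± 0.11, while Ccng1 (-1.09 ± 0.10) and Sesn2 were lower and Mdm2 was not called (-0.19 ± 0.14, adjusted p = 0.273, edgeR) except with upper-quartile scaling (-0.38, adjusted p = 0.0341, edgeR).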

How the data were processed

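Per the labels' protocols, RNA of sorted cells was extracted with a micro-scale kit, amplified (SMARTer), enriched for poly(A) and sequenced as read pairs. The submitters' processing notes name GRCm39, STAR 2.7.9a, Trim Galore 0.6.5, DESeq2 and featureCounts, without settings. The deposited table holds raw counts. Per the file headers, featureCounts 2.0.1 counted pairs over GENCODE M33 without strand, with pairs over several genes counted for each and multi-mapping pairs left out. Genes that overlap on either strand therefore share counts, and near-identical copies lose them. The header names 30 alignment files, of which the 11 with a column were used. Symbols were matched by identifier for 51948 genes (91.2%).

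Counts were filtered (filterByExpr), scaled (TMM) and tested with edgeR 4.0.16 in R 4.3.3 by the quasi-likelihood test, with Benjamini-Hochberg adjustment over 20622 genes and a threshold of 0.05. SE is the absolute log2 fold change over the square root of F. CPM are TMM-normalised, and FPKM use the table's exon length. Scripts were tested on simulated data. Counts of 0 allow up to 3, for counting error only, since amplified fragments are not independent molecules. Chi-square per degree of freedom between libraries of a genotype was 13.4 to 84.3, so none was the same library sequenced again. This does not show that the libraries came from different animals.

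Members and lists were chosen with earlier results of these data known. Named genes are the stalk, Rpsa, Rps6, Rpl5, Rpl11, paralogs and partners, the 6 highest and 6 lowest log2 fold changes per subunit, the 5 highest and lowest levels per length, the 5 highest p-values, and list members with the smallest p. Rpl24, Rps3, Rrp12, Fbl, Npm1, Slc4a1 and the genes listed by share of core counts were chosen after their values were seen. So were Akt1, Eif4ebp2, Rps6kb1, Rptor, Tsc2, Deptor, Ddit4, Mxd3, Mxi1, Mnt, Mycl, Eef1b2, Eef1d and Eef1g. A few further genes that this rule names are not reported here. Genes most like the members were not sought, since libraries fall into separate clusters by genotype. Alternatives covered scaling, tests (DESeq2 1.42.0, limma 3.58.1 voom), filters, wildtype subsets, each library left out, and a replicate block.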

Additional observations from a re-analysis of the deposited data

Results flagged for a closer look

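Within the 5 APC-mutant or the 6 wildtype libraries, 8 of 184 tested sets of values had a highest or lowest library whose gap to the next was large beside the whole range. Chance gives about 1 in 20 such sets. The share of Rpl22l1 in its pair was 67.1% in wildtype replicate 5, with the next wildtype library at 60.2%. Rpl3l had 0.479 CPM in APC-mutant replicate 1 (next 0.152) and 0.114 CPM in wildtype replicate 2 (next 0), and its share of the pair was 0.089% and 0.0319% in the same libraries. These Rpl3l values come from 18 counts over the APC-mutant and 3 over the wildtype libraries. Eef1a2 had 0.254 CPM in APC-mutant replicate 6 (next 0.0533). In APC-mutant replicate 2, Mxd1 was highest at 189 CPM (next 121) and Nap1l1 lowest at 334 CPM (next 417).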

How the results depend on the processing

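The core median stood 0.40 (ROSAE wildtype libraries only) to 0.64 (without APC-mutant replicate 5 and wildtype replicates 2 and 5, set apart from earlier results) above the all-gene median over all settings. The number of core genes higher was 65 to 74 except 42 with upper-quartile scaling and 48 with ROSAE only, and leaving out single libraries gave 66 to 72. Higher calls over all members were 43 with upper-quartile scaling. Lower calls over all members were 0 with limma-voom, without the 3 libraries set apart and without wildtype replicates 2, 5 and 6, and 1 with the stricter filter and with ROSAJC only. Large-subunit genes higher were 22 (upper quartile) and 25 (ROSAE only).

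With upper-quartile scaling, higher counts were 6 for initiation factors, 2 for elongation factors, 7 for other TOP messenger RNAs, 2 for snoRNA hosts, 1 for regulators and 3 for MYC and partners, and lower counts were 7 for biogenesis, 6 for initiation, 2 for snoRNA hosts and 36 for mitochondrial genes. Lower biogenesis genes were 2 with DESeq2 size factors, the DESeq2 test, the stricter filter and without wildtype replicates 4 and 5, 3 with ROSAJC only, without the 3 libraries set apart and without wildtype replicates 2, 5 and 6, and 4 with library totals. Lower initiation factors were 4 with library totals, ROSAJC only and without wildtype replicates 2, 5 and 6, and 1 with ROSAE only. Higher regulators were 2 with ROSAE only. Without wildtype replicates 4 and 5, lower MYC partners were 1 and lower mitochondrial genes 19, and without wildtype replicates 2, 5 and 6 higher mitochondrial genes were 15. With ROSAE only, the Rpl22l1 share differed by -10.95 and the Rps4l share by -2.45 points (adjusted p = 0.286, exact permutation). Leaving out single libraries gave 1 to 2 lower biogenesis genes, 1 to 3 lower MYC partners, 5 to 10 higher and 9 to 18 lower mitochondrial genes, and share differences of -7.83 to -5.86 points for Rpl22l1, -4.34 to -3.37 for Rps4l (both calls lost without APC-mutant replicate 1, 4, 5 or 6, adjusted p = 0.0571, exact permutation), 0.0143 to 0.0339 for Rpl3l and 0.122 to 0.277 for Rpl39l. The cause was not tested.

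Signs turned, with these log2 fold changes, for Larp1 (0.0123 with the replicate block, 0.0519 with ROSAE only, -0.0731 to 0.0085 with single libraries left out, above 0 without APC-mutant replicate 4 at 0.0073 and wildtype replicate 3 at 0.0085), Mtor (-0.0503, upper quartile), Rpl22l1 (0.0535 with ROSAJC only, 0.0288 without the 3 libraries set apart, 0.0647 without wildtype replicates 2, 5 and 6, -0.1720 to 0.0231 with single libraries left out, the highest without wildtype replicate 5), Rpl32l (-0.3715, ROSAE only), Rpl38 (-0.0799 upper quartile, -0.1606 ROSAE only, -0.0034 to 0.2312 with single libraries left out, the lowest without wildtype replicate 4), Rpl41 (-0.0327, upper quartile), Rps21 (-0.0921, ROSAE only), Rps3a2 (0.5042) and Rps3a3 (1.3232) without wildtype replicates 2, 5 and 6. Of the other values of named genes, 1950 kept direction and side of the threshold, 68 fell below it and 11 passed it.

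Replicate numbers did not pair the libraries, since the correlations of deviations between same-numbered libraries were -0.151 to 0.0492. With the replicate block 66 core genes were higher, all genes called were 10711 and higher regulators were 2. The gene-level sets without wildtype replicates 4 and 5, and without 2, 5 and 6, were chosen after seeing the data. Depth limits Rpl3l, Rpl39l, Rpl10l and Rps12l1, which stayed untested.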
